A study of Rattus norvegicus with 10 samples.

Results

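The enzymes of tryptophan breakdown and NAD synthesis were examined in rat kidney as 10 listed genes, taken by gene symbol: Acmsd, Kynu, Kmo, Haao, Qprt, Afmid, Nampt, Naprt, Nadsyn1 and Nmnat1. They were chosen with earlier results of these data known, so their counts beside shares of all probe sets are descriptions only. Of these, 9 had a named probe set, out of 14506 genes named on the array. Afmid, the formamidase that releases kynurenine, had none and has no value here. Every measured gene had exactly 1 probe set, so no choice between probe sets was needed.

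The kidneys came from male weanling Wistar rats killed on day 6 of feeding, and the purpose stated in the study's title is the acute renal failure that follows choline deficiency and its prevention by fish oil. Choline is a dietary precursor of membrane phospholipid. The groups were the necrotic group (a choline-deficient diet with vegetable oil, in pools that carry the word necrotic), the deficient vegetable oil group (the same diet, without that word), the control vegetable oil group (choline supplied, with vegetable oil), the deficient fish oil group (no choline, with menhaden oil) and the control fish oil group (choline supplied, with menhaden oil). The vegetable fat is called corn oil in the sample labels and corn plus hydrogenated oils in the protocol. Each group had 2 arrays, each array carried RNA pooled from 3 animals, and the spread between the arrays of a group is therefore a spread between pools. The design names only the 4 diets. How animals were sorted into pools labelled necrotic was not given in the sources used here, so the necrotic group is a labelled subset of a diet and not a diet of its own.

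Cells make NAD, the carrier of electrons in metabolism and the substrate of sirtuins and PARP enzymes, by routes that meet at a few shared steps. The de novo route opens tryptophan to kynurenine, which Kmo hydroxylates, Kynu cleaves to 3-hydroxyanthranilate and Haao opens to an unstable semialdehyde. That semialdehyde either closes by itself to quinolinate, which Qprt turns into nicotinic acid mononucleotide, or is taken away by Acmsd toward glutarate and complete oxidation. The other routes start from vitamin B3 forms, with Naprt acting on nicotinic acid and Nampt on nicotinamide. Nmnat1, the nuclear adenylyltransferase, joins either mononucleotide to the adenylate part, and Nadsyn1 then amidates nicotinic acid adenine dinucleotide to NAD. In mammals the whole de novo route is known from liver and kidney, and in kidney mainly from the proximal tubule.

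Promoter sequence is shown for Kynu, Kmo, Haao and Qprt, the enzymes of successive de novo steps whose levels moved together, so that their start regions can be compared. Each sequence is the 250 bases before the annotated gene start, 5′ to 3′ on the gene's strand, from RefSeq (GRCr8): Kynu at chr3:48188036-48188285 (plus strand), Kmo at chr13:90089271-90089520 (plus strand), Haao at chr6:16598075-16598324 (plus strand) and Qprt at chr1:191164007-191164256 (minus strand). Capitals mark a match to the core letters of the HNF4 site.
Kynu: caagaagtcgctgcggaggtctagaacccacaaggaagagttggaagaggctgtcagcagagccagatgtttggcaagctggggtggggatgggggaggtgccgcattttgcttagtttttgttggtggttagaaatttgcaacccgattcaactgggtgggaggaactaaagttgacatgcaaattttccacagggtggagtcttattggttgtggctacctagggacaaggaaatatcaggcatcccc
Kmo: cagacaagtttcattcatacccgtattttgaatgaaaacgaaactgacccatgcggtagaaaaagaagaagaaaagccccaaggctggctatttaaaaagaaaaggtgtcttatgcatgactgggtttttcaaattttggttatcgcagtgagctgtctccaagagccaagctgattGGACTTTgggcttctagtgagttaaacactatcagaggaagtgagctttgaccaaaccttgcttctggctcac
Haao: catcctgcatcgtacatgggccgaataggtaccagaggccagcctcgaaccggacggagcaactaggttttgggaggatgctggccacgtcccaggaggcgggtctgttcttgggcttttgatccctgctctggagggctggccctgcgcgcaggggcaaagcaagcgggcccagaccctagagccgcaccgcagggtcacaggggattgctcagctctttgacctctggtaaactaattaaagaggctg
Qprt: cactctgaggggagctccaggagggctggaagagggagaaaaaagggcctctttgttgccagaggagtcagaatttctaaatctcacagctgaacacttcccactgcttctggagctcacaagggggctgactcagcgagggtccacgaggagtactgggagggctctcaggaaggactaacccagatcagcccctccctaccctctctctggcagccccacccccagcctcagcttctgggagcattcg
A promoter entry was found for 7 of the 10 genes, and none for Acmsd, Nampt and Naprt, which were therefore not searched. The letters searched, on both strands, were GTTAAT (the short site of HNF1, a tubule and liver transcription factor) and AAAGTCC (the core of the site of HNF4, another such factor). Of the 7 promoters, 0 held the HNF1 letters, against 6.45% of 33469 rat promoters of the same length. Only Kmo held the HNF4 core, on the opposite strand and starting 73 bases before the start, against 3.99% of all promoters. A match describes letters only.

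All values are log2 probe set intensities after RMA, the authors' array normalization, so a difference of 1 is a 2-fold difference. Levels of different genes are not compared, because probe sets differ in brightness. All 9 genes lay above the median of their array on all 10 arrays. A difference was called when its adjusted p in limma (Benjamini-Hochberg over all 29214 probe sets of a comparison) was under 0.05, and rose and fell refer to such calls.

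The 10 arrays had medians between 7.28 and 7.43. The tissue label was checked with marker genes, and all 12 proximal tubule markers lay above the array median on every array. Replicate 2 of the deficient vegetable oil group stood apart from its replicate 1 in most of the genes studied. It lay below replicate 1 and below both control vegetable oil arrays in 8 of the 9 genes, a pattern seen in 27.6% of all probe sets. In comparisons of 2 groups, counts of the 9 genes that rest on this array are given with and without it. Counts of cell markers and of genes around the pathway are given from the fit of all arrays only.

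The lowest levels of the de novo enzymes were all in the necrotic kidneys. Kmo, the kynurenine hydroxylase of the outer mitochondrial membrane, read 8.88 and 8.60 in necrotic, 11.48 and 10.39 in deficient vegetable oil, 11.48 and 11.50 in control vegetable oil, 11.77 and 11.90 in deficient fish oil and 12.12 and 12.03 in control fish oil kidneys. Both necrotic arrays lay far below the other 8, and the deficient vegetable oil arrays differed from each other by 1.09. Kmo was also the one gene of the 9 whose 5 group ranges were all apart from their neighbours, with necrotic lowest, then deficient and control vegetable oil, then deficient and control fish oil. Deficient and control vegetable oil were barely apart, as replicate 1 of both read 11.48.

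Kynu, the kynureninase that cleaves 3-hydroxykynurenine, read 8.17 and 8.43 in necrotic, 11.23 and 9.92 in deficient vegetable oil, 11.32 and 11.23 in control vegetable oil, 11.05 and 11.07 in deficient fish oil and 11.40 and 11.02 in control fish oil kidneys. The necrotic arrays again sat below all others, and the gap of 1.31 between the deficient vegetable oil arrays was wider than in any other of the 9 genes. Haao, the dioxygenase that opens 3-hydroxyanthranilate, read 8.90 and 8.31 in necrotic, 11.19 and 10.37 in deficient vegetable oil, 11.09 and 11.31 in control vegetable oil, 11.18 and 11.13 in deficient fish oil and 11.07 and 11.06 in control fish oil kidneys. Apart from the necrotic pair and replicate 2 of deficient vegetable oil, its arrays lay close together.

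Both enzymes at the branch point were lowest in necrotic kidneys. Acmsd, which diverts the semialdehyde away from NAD, read 7.57 and 7.92 in necrotic, 12.33 and 11.44 in deficient vegetable oil, 12.51 and 12.47 in control vegetable oil, 12.12 and 12.08 in deficient fish oil and 12.34 and 12.17 in control fish oil kidneys. No necrotic value came near any other, and the next lowest array was replicate 2 of deficient vegetable oil. Qprt, which commits quinolinate to NAD, read 8.70 and 8.22 in necrotic, 10.22 and 9.41 in deficient vegetable oil, 10.30 and 10.34 in control vegetable oil, 10.30 and 10.19 in deficient fish oil and 10.37 and 10.10 in control fish oil kidneys. Its necrotic arrays were again below the other 8.

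Of the enzymes that take in vitamin B3, Naprt followed the de novo enzymes and Nampt did not. Naprt read 9.40 and 9.50 in necrotic, 11.03 and 10.74 in deficient vegetable oil, 11.05 and 11.16 in control vegetable oil, 10.90 and 10.96 in deficient fish oil and 10.96 and 10.79 in control fish oil kidneys. Its necrotic arrays were separate from the rest and its other groups lay close together. Nampt, the rate-limiting enzyme of nicotinamide salvage, read 9.83 and 10.26 in necrotic, 10.45 and 10.31 in deficient vegetable oil, 9.50 and 9.59 in control vegetable oil, 10.22 and 10.17 in deficient fish oil and 10.43 and 10.12 in control fish oil kidneys. Here the control vegetable oil arrays were the lowest pair, below all other 8 arrays, a pattern held by 6.6% of probe sets. The other 4 groups of Nampt overlapped with their neighbours in order of mean.

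At the shared last steps both genes were again lowest in necrotic kidneys. Nmnat1 read 8.93 and 9.19 in necrotic, 9.57 and 9.35 in deficient vegetable oil, 9.95 and 10.17 in control vegetable oil, 9.79 and 9.93 in deficient fish oil and 10.09 and 9.66 in control fish oil kidneys. Its deficient vegetable oil arrays differed from each other by 0.22. Nadsyn1 read 8.46 and 8.37 in necrotic, 10.08 and 9.39 in deficient vegetable oil, 9.74 and 9.93 in control vegetable oil, 10.08 and 10.19 in deficient fish oil and 10.17 and 9.83 in control fish oil kidneys. Only its necrotic pair was separate from every other group. Both necrotic arrays lay below the other 8 arrays in 8 of the 9 genes, all but Nampt, and in 13.3% of all probe sets.

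**Figure D1:**
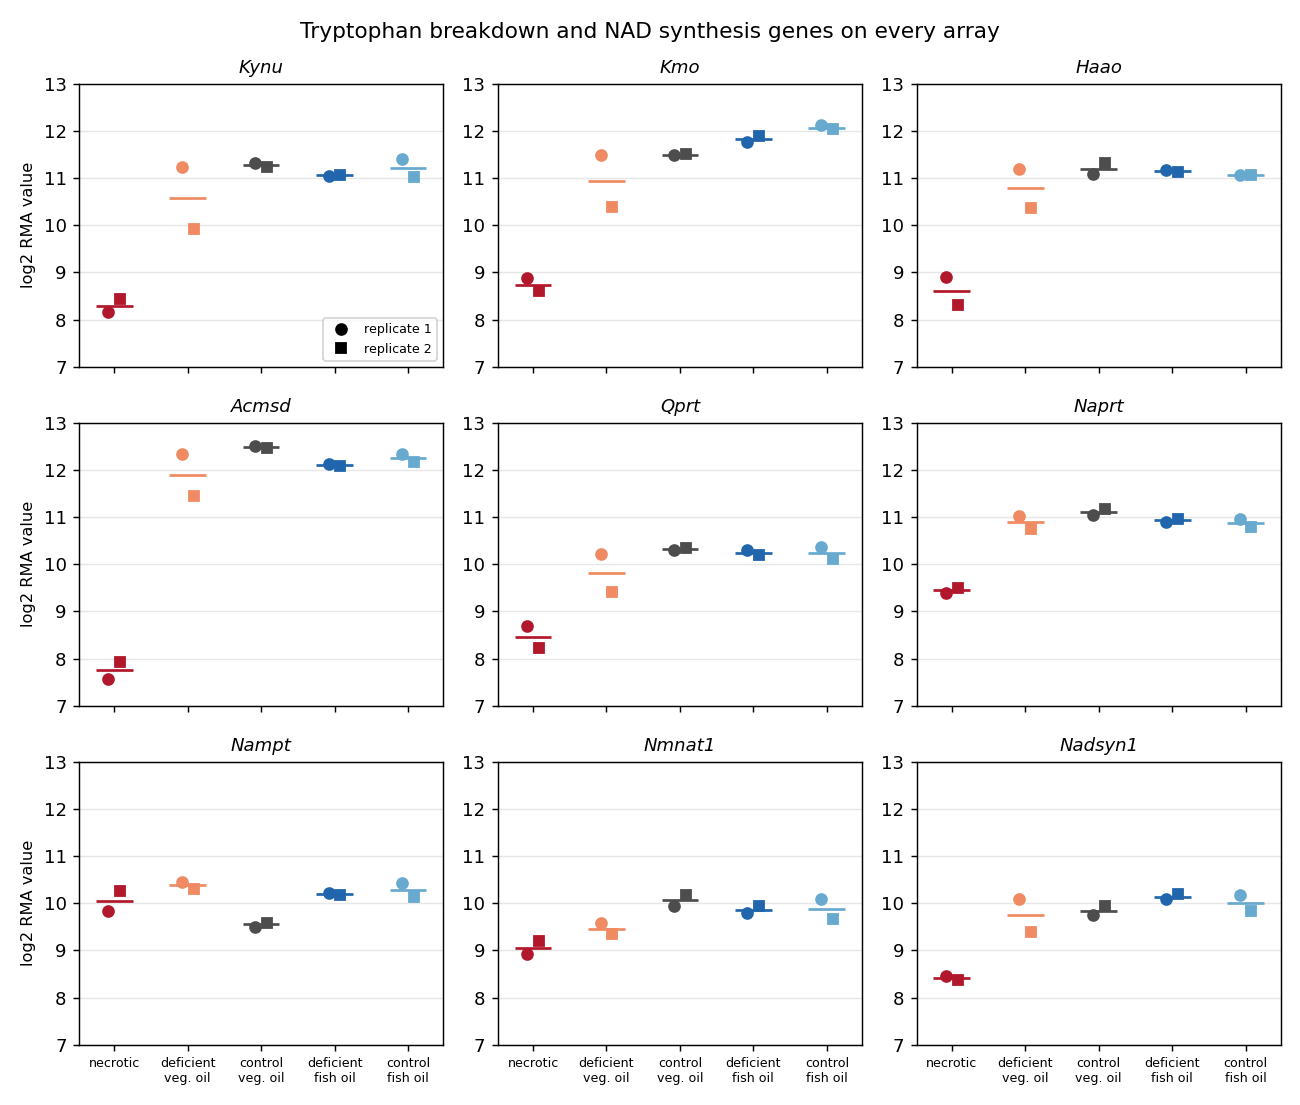
Log2 RMA value (vertical axis) of each array in the 5 groups for the 9 measured genes, 1 panel a gene, with circles for replicate 1, squares for replicate 2 and a bar at the group mean. The necrotic arrays are the lowest pair in 8 panels, and in the Nampt panel the control vegetable oil arrays are.

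Necrotic kidneys were compared with control vegetable oil kidneys to ask how the pathway differed where necrosis was labelled. The genes of both the de novo route and the shared last steps fell, 8 of the 9 in all, while 20.9% of all probe sets were called in either direction and 10.7% were lower. The median difference of the 9 genes was −1.86, against 0.06 over all probe sets. Acmsd had the largest fitted difference of the 9 genes, a log2 difference of −4.74 ± 0.25 (SE; 26.7-fold lower, limma adjusted p = 2.61e-05). In whole kidney RNA, fewer cells that make an enzyme and less of its RNA in each cell cannot be told apart. Of 12 proximal tubule markers 11 fell in the same comparison.

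All 3 enzymes upstream of the branch fell. The log2 difference was −2.97 ± 0.35 for Kynu (adjusted p = 0.000702), −2.75 ± 0.29 for Kmo (adjusted p = 0.000409) and −2.59 ± 0.27 for Haao (adjusted p = 0.000382). These are 7.83-fold, 6.72-fold and 6.03-fold lower levels. Qprt, on the NAD side of the branch, was 3.62-fold lower (−1.86 ± 0.26, adjusted p = 0.00145). Within each necrotic array, the change of Acmsd from the control vegetable oil mean lay −3.30 and −2.47 from that of Qprt, against −0.05 and −0.14 in the deficient vegetable oil arrays. That gap between the 2 genes was not tested.

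The nicotinic acid enzyme and the enzymes of the last steps fell as well. Naprt was 3.15-fold lower (−1.65 ± 0.13, adjusted p = 0.00012), Nadsyn1 2.68-fold lower (−1.42 ± 0.22, adjusted p = 0.00238) and Nmnat1 2.0-fold lower (−1.0 ± 0.18, adjusted p = 0.00464). Nampt went the other way without passing the threshold, at 0.50 ± 0.17 (adjusted p = 0.0654). Its adjusted p ran from 0.0288 to 0.273 over the alternatives tried and was under 0.05 in 5 of 11. The calls of the other 8 genes held in all 11 alternatives.

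Against the deficient vegetable oil kidneys, which ate the same diet, 7 of the 9 genes were lower in necrotic kidneys, while 9.79% of probe sets were called and 5.08% were lower. Acmsd was 17.6-fold lower (−4.14 ± 0.25, adjusted p = 0.000127). Kynu differed by −2.28 ± 0.35, Kmo by −2.19 ± 0.29, Haao by −2.17 ± 0.27, Naprt by −1.44 ± 0.13, Qprt by −1.35 ± 0.26 and Nadsyn1 by −1.32 ± 0.22, with adjusted p between 0.000638 and 0.0135. Nmnat1 (−0.40 ± 0.18, adjusted p = 0.216) and Nampt (−0.34 ± 0.17, adjusted p = 0.266) did not pass. Without replicate 1 of deficient vegetable oil the count was 6, with Acmsd at −3.70 and Kynu at −1.62, and Qprt no longer passed (−0.95, adjusted p = 0.0612). Without its replicate 2 the count was 7, with Acmsd at −4.59 and Kynu at −2.93. Qprt was also lost without replicate 2 of necrotic (adjusted p = 0.084), and with only these 2 groups in the fit 4 genes passed.

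**Figure D2:**
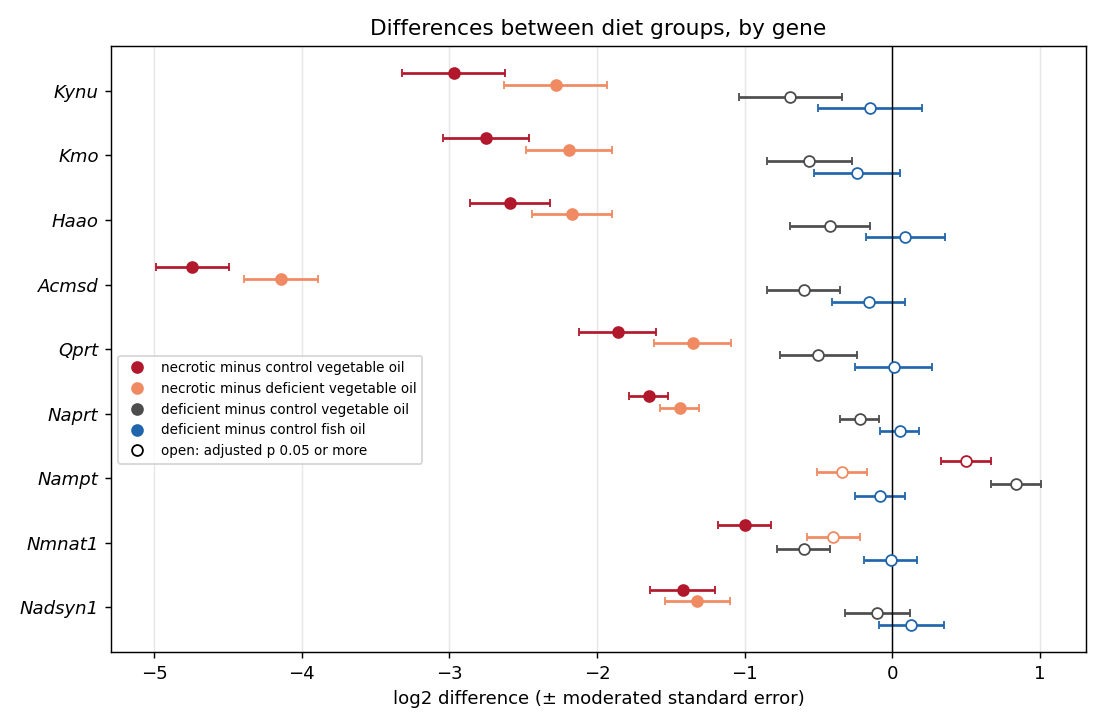
Log2 difference of each of the 9 genes with its moderated SE (error bars) in 4 comparisons, with filled points where the adjusted p was under 0.05. In the necrotic comparisons most points are filled and negative, with Acmsd at −4.74 and −4.14, while no point is filled in the comparisons of deficient with control diets.

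Choline deficiency with vegetable oil, in pools not labelled necrotic, gave no call among the 9 genes (0 of 9 by limma, 3 at an unadjusted p under 0.05), against 1.13% of probe sets called and 15.2% at an unadjusted p under 0.05. The median difference from control vegetable oil was −0.50 over the 9 genes and 0.01 over all probe sets. The difference was −0.60 ± 0.25 for Acmsd (adjusted p = 0.317), −0.69 ± 0.35 for Kynu (adjusted p = 0.385) and −0.60 ± 0.18 for Nmnat1 (adjusted p = 0.174). Nampt had the opposite sign, 0.84 ± 0.17 (1.79-fold, adjusted p = 0.0578), and passed in 4 of 11 alternatives. This comparison uses the same control arrays as the necrotic one.

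The 2 deficient vegetable oil pools gave different pictures. Relative to the control vegetable oil mean, Kynu stood at −0.04 in replicate 1 and −1.35 in replicate 2, Kmo at −0.01 and −1.10, and Acmsd at −0.15 and −1.04. Haao stood at −0.01 and −0.83 and Qprt at −0.10 and −0.90. In replicate 1 these 5 enzymes were thus near the control level, and in replicate 2 they were lower. Nmnat1 stood at −0.49 and −0.71, below the control mean in both pools. Naprt stood at −0.07 and −0.36 and Nadsyn1 at 0.25 and −0.44. Nampt stood at 0.91 and 0.77, alike in both pools. Fitted without replicate 1, Acmsd, Kynu and Kmo passed (adjusted p = 0.0298, 0.0176 and 0.0176), and without replicate 2 the count was 0 of 9 with Kynu at −0.04.

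**Figure D3:**
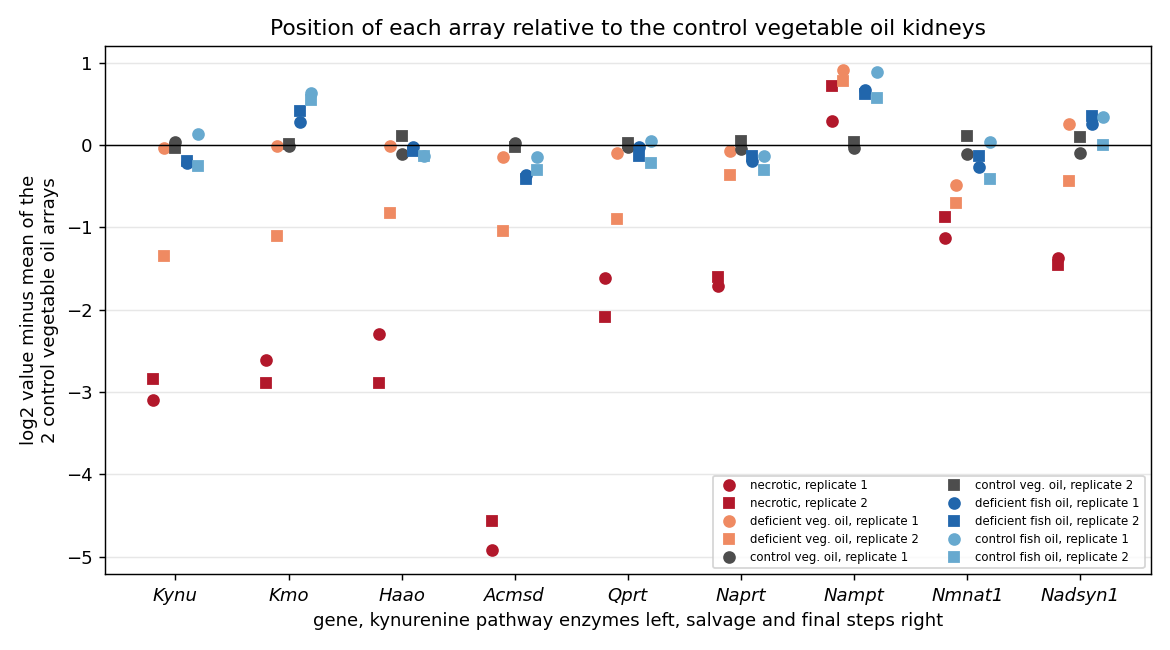
Change of each gene on each array, as its log2 value minus the mean of the 2 control vegetable oil arrays, for the 9 genes. In deficient vegetable oil kidneys Kynu, Kmo and Acmsd lie near 0 in replicate 1 (−0.04, −0.01 and −0.15) and at −1.35, −1.10 and −1.04 in replicate 2, while Nampt lies at 0.91 and 0.77.

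With fish oil, choline deficiency gave differences between −0.24 (Kmo) and 0.13 (Nadsyn1) and no call (0 of 9 by limma and 0 at an unadjusted p under 0.05), against 0.0% of probe sets called and 3.55% at an unadjusted p under 0.05. The SE of these differences were 0.13 to 0.35. With 2 pools a group even shifts of several SE can go uncalled, as did Nampt at 0.84 ± 0.17 in deficient minus control vegetable oil. Between the choline-supplied diets, control fish oil minus control vegetable oil, 0 of 9 genes were called and 1 had an unadjusted p under 0.05, against 0.185% and 12.4% of probe sets. That gene was Nampt, at 0.73 ± 0.17 (1.66-fold, adjusted p = 0.158), and Kmo was next at 0.58 ± 0.29 (adjusted p = 0.448). Between the deficient diets, deficient fish oil minus deficient vegetable oil, 0 of 9 were called and 1 had an unadjusted p under 0.05, against 1.74% and 12.6% of probe sets. The differences ran from −0.19 (Nampt) to 0.90 ± 0.29 (Kmo, adjusted p = 0.221). Without replicate 1 of deficient vegetable oil, Kynu and Kmo passed here, and without its replicate 2 no gene did.

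Deficient fish oil kidneys were also set against necrotic ones, both on diets without choline. All but Nampt were higher in the deficient fish oil kidneys, 8 of 9, while 19.7% of probe sets were called and 9.25% were higher. These groups differ in oil and in the necrotic label, which cannot be told apart in this comparison. Acmsd was 20.4-fold higher (4.35 ± 0.25, adjusted p = 3.84e-05), Kmo differed by 3.09 ± 0.29 and Kynu by 2.76 ± 0.35. Nmnat1 was the smallest called difference, 0.80 ± 0.18 (adjusted p = 0.0133), and it did not pass without replicate 1 of necrotic (adjusted p = 0.0814) or without replicate 2 of deficient fish oil (adjusted p = 0.0856).

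The effect of choline deficiency under fish oil minus that under vegetable oil was tested as an interaction. With the necrotic pools as the vegetable oil arm, 8 of 9 genes passed with positive values, against 8.72% of probe sets called and 4.9% positive. Acmsd had 4.58 ± 0.36 (adjusted p = 0.000504), Naprt 1.71 ± 0.19 (adjusted p = 0.00165) and Haao 2.68 ± 0.38 (adjusted p = 0.00472). The count was 5, with Qprt, Nadsyn1 and Nmnat1 lost, when any 1 of the 8 arrays was left out, other than replicate 1 of necrotic (7, with Nmnat1 lost) and replicate 1 of control fish oil (8). With the pools not labelled necrotic in that arm, 0 of 9 passed by limma and 2 had an unadjusted p under 0.05, against 0.103% and 9.9% of probe sets. Nampt had the most negative value there, −0.92 ± 0.23 (adjusted p = 0.284), and Nmnat1 the most positive, 0.59 ± 0.25 (adjusted p = 0.493). The first of these interactions sets a subset of kidneys chosen by a label against whole diet groups.

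Genes around the pathway were counted from 6 lists, of which 38 genes were measured. These lists too were chosen with earlier results of these data known, and their counts are descriptions. In necrotic against control vegetable oil kidneys 20 of the 38 fell and 3 rose, with a median difference of −0.51, beside the 10.7% and 10.2% of all probe sets lower and higher. Uptake genes went in opposite directions. Slc6a19, the apical transporter that reabsorbs neutral amino acids, fell (−2.77 ± 0.20, adjusted p = 8.29e-05) as did Slc7a8, a basolateral exchanger (−1.85 ± 0.15, adjusted p = 0.000138), whereas Slc7a5, an exchanger of large neutral amino acids, rose (2.34 ± 0.17, adjusted p = 8.64e-05). Slc7a5 read 10.42 and 10.27 in necrotic, 9.21 and 9.63 in deficient vegetable oil, 7.98 and 8.03 in control vegetable oil, 7.82 and 7.45 in deficient fish oil and 7.72 and 7.69 in control fish oil kidneys.

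In deficient against control vegetable oil kidneys 1 of the 38 was called, beside 1.13% of all probe sets, and 8 had an unadjusted p under 0.05, beside 15.2%. The call was Slc7a5 (1.42 ± 0.17, adjusted p = 0.00811). It was lost without either control array (adjusted p = 0.0934 and 0.0771) and in a fit of these 2 groups alone (adjusted p = 0.0643). In deficient fish oil against deficient vegetable oil kidneys 1 of 38 was called, beside 1.74% of all probe sets, and 13 had an unadjusted p under 0.05, beside 12.6%. The call was again Slc7a5, at −1.78 ± 0.17 (adjusted p = 0.00249), and was lost in the fit of those 2 groups alone (adjusted p = 0.086). Tdo2, the tryptophan dioxygenase known from liver, read 4.44 and 4.24 in necrotic kidneys, against 4.79 and 5.27 in control vegetable oil kidneys, all below 5.75, the 25th percentile of probe set means. It is 1 of the 20 genes counted as lower, although levels so low are not shown to be above background. Ido1, the other measured enzyme of that first step, also lay below 5.75 on every array. It read 5.47 and 5.16 in necrotic and 5.12 and 5.49 in control vegetable oil kidneys.

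The glutarate branch that follows Acmsd fell together, with 3 of 3 measured genes lower and a median of −1.75, beside 10.7% of all probe sets lower. Dhtkd1, a subunit of the oxoadipate dehydrogenase, fell (−2.30 ± 0.16, adjusted p = 6.95e-05), as did Acat1, the mitochondrial thiolase (−1.75 ± 0.17, adjusted p = 0.000286) and Gcdh, the glutaryl-CoA dehydrogenase (−1.62 ± 0.13, adjusted p = 0.000135). Among the aminotransferases that turn kynurenine to kynurenic acid, 3 of 4 fell, Kyat3 (−1.68 ± 0.16, adjusted p = 0.000293), Aadat (−1.07 ± 0.11, adjusted p = 0.000418) and Kyat1 (−0.55 ± 0.13, adjusted p = 0.0181).

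Of 7 salvage and transport genes 3 fell and 1 rose, beside 10.7% of all probe sets lower and 10.2% higher. Slc5a8, a carrier of monocarboxylates including nicotinate, fell (−1.07 ± 0.22, adjusted p = 0.00885) as did Nt5e, the ecto-nucleotidase (−0.98 ± 0.11, adjusted p = 0.000579), and Nmnat3, the mitochondrial adenylyltransferase (−0.48 ± 0.13, adjusted p = 0.0327), while Pnp, the purine nucleoside phosphorylase, rose (0.46 ± 0.13, adjusted p = 0.0393). Of 15 genes of NAD use and nicotinamide clearance 5 fell and 1 rose, beside the same shares of all probe sets. Nnt, the mitochondrial transhydrogenase, fell (−1.33 ± 0.15, adjusted p = 0.000663) as did Sirt3, a mitochondrial deacylase (−0.84 ± 0.14, adjusted p = 0.0031), and Nadk2, the mitochondrial NAD kinase (−0.65 ± 0.12, adjusted p = 0.0066), while Nnmt, which methylates nicotinamide, rose (0.43 ± 0.12, adjusted p = 0.038). Parp1, the main poly(ADP-ribose) polymerase, differed by 0.10 ± 0.15 and was not called.

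Transcription regulators of the route were lower too, 3 of 3 measured, beside 10.7% of all probe sets lower. Ppara, the fatty acid receptor, fell (−1.81 ± 0.22, adjusted p = 0.000757), as did Hnf4a (−1.40 ± 0.14, adjusted p = 0.000328) and the coactivator Ppargc1a (−0.83 ± 0.13, adjusted p = 0.00267). In necrotic against deficient vegetable oil kidneys 15 of the 38 genes fell and 1 rose, beside 9.79% of all probe sets called and 5.08% lower. In deficient fish oil against necrotic kidneys 18 were higher and 3 lower, beside 19.7% called and 9.25% higher. Deficient against control fish oil kidneys gave 0 of 38 by limma (0 at an unadjusted p under 0.05), beside 0.0% and 3.55% of all probe sets. Control fish oil against control vegetable oil kidneys gave 0 of 38 by limma (1 at an unadjusted p under 0.05), beside 0.185% and 12.4%.

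**Figure D4:**
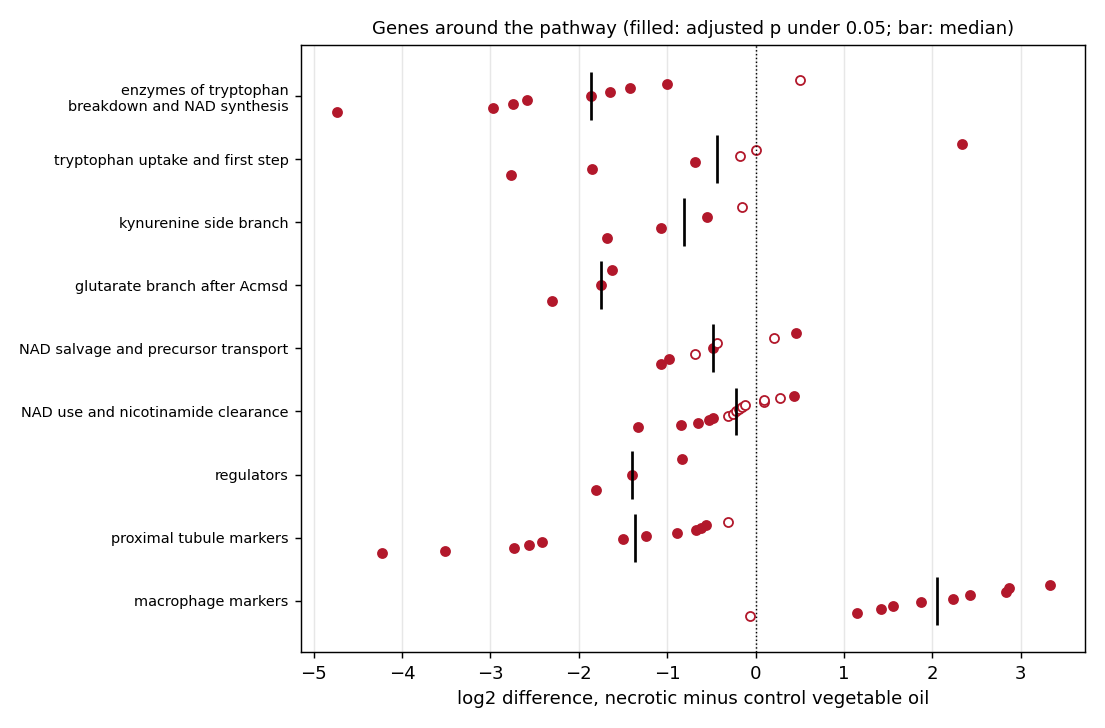
Log2 difference of necrotic minus control vegetable oil kidneys for the enzymes of tryptophan breakdown and NAD synthesis and for 6 lists around them. Proximal tubule and macrophage markers are drawn below them. Points are filled where called, and a bar marks each list's median. Outside the markers the medians run from −1.86 (the 9 enzymes) through −1.75 (glutarate branch) to −0.22 (NAD use and nicotinamide clearance). Slc7a5, at 2.34, is the highest point of the 6 lists. The marker medians are −1.37 for proximal tubule and 2.05 for macrophage.

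Cell markers moved with these results. The proximal tubule markers had a median difference of −1.37 in necrotic against control vegetable oil kidneys, and among the 11 of 12 that fell were Miox, the inositol oxygenase (−4.23 ± 0.15, adjusted p = 4.3e-06), and Slc34a1, the phosphate carrier (−3.51 ± 0.11, adjusted p = 3.04e-06). The log2 of their summed intensity was 15.47 and 15.33 in necrotic, 16.66 and 16.47 in deficient vegetable oil, 16.78 and 16.85 in control vegetable oil, 16.70 and 16.80 in deficient fish oil and 16.75 and 16.72 in control fish oil kidneys. Replicate 2 of deficient vegetable oil was thus the lowest array outside the necrotic group here as well. Of 10 macrophage markers 9 rose in necrotic kidneys (median 2.05), led by Mrc1 (3.33 ± 0.22, adjusted p = 6.02e-05), beside 10.2% of all probe sets higher. In deficient against control vegetable oil kidneys 2 of the 10 rose, beside 1.13% of all probe sets called. The log2 sum of the 10 markers was 14.19 and 14.24 in necrotic, 13.30 and 13.77 in deficient vegetable oil, 12.56 and 12.52 in control vegetable oil, 12.28 and 12.55 in deficient fish oil and 12.25 and 12.47 in control fish oil kidneys. Replicate 2 of deficient vegetable oil thus lay further from the control arrays than its replicate 1.

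The part of these markers in the enzyme differences was not tested. Of 4 thick ascending limb markers 3 fell and of 3 podocyte markers 2 fell in necrotic kidneys, beside 10.7% of all probe sets lower. Of 4 adipocyte markers 1 fell, and of 3 adrenal markers 0 were called (2 at an unadjusted p under 0.05). Over all 29214 probe sets, 20.9% were called and 9670 had an unadjusted p under 0.05 in necrotic against control vegetable oil kidneys. Liver also uses this pathway, so hepatocyte markers were read: 0 of 5 were called in this comparison by limma (2 at an unadjusted p under 0.05). Their log2 sum was 8.28 and 7.90 in necrotic, 7.93 and 10.08 in deficient vegetable oil, 9.49 and 10.21 in control vegetable oil, 8.46 and 8.77 in deficient fish oil and 9.07 and 8.12 in control fish oil kidneys. Of these markers 3 of 5 lay below the array median on all arrays. Their differences in necrotic against control vegetable oil kidneys had a median of −0.67, with −2.88 for Ahsg (adjusted p = 0.0548), −1.19 for Serpina1, −0.67 for Apob, −0.22 for Tat and 0.06 for Cyp7a1.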

How the data were processed

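Kidney RNA of 10 pools (5 groups of 2, read from the sample labels) was measured on 1-colour arrays. The deposited values are log2 intensities made by the authors with RMA, per the submitters' processing notes; its software version is not given in the sources used here. RMA includes quantile normalization of probe intensities, which makes arrays alike in distribution, so changes are relative to the array. Values were used as deposited, without filter.

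Probe sets were named through the platform annotation: 15310 of 29214 have 1 symbol, 323 several and 13581 none. The gene table (GRCr8) served names and promoters only. All groups entered 1 limma 3.58.1 fit (R 4.3.3; lmFit, eBayes; 5 residual and 3.59 prior degrees of freedom), with 9 contrasts, 2 of them interactions, adjusted by Benjamini-Hochberg over all probe sets. The fit was also run on simulated data with independent noise and no divergent pool, so that run does not test the calls given here. Tables and figures used Python 3.11.15, pandas 2.3.3, numpy 2.4.6 and matplotlib 3.10.9.

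The genes and lists were chosen with earlier results of these data known. Named were all listed genes, up to 3 called genes a list with the largest difference, and the 5 genes most like Acmsd and Nampt. Pnp, Nnmt, Parp1, the levels of Slc7a5, Tdo2 and Ido1 and the 5 hepatocyte markers were chosen after values were seen. Alternatives were median centring, cyclic loess, a filter at the 25th percentile, a trended robust prior, a replicate block, the mean of all probe sets, single-contrast fits and leaving out each array. Replicate numbers did not pair the samples (correlations of deviations between groups from −0.173 to 0.136).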

Additional observations from a re-analysis of the deposited data

Results flagged for a closer look

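For 8 of the 9 genes 1 interaction passed the test of the difference itself: deficient minus control under fish oil, minus necrotic minus control under vegetable oil. The vegetable oil arm of this test is the pools labelled necrotic, a subset of that diet, and 8.72% of all probe sets passed as well. On the log2 scale the difference was 4.58 for Acmsd, 2.82 for Kynu, 2.68 for Haao, 2.51 for Kmo, 1.87 for Qprt, 1.71 for Naprt, 1.55 for Nadsyn1 and 0.99 for Nmnat1, with limma adjusted p from 0.000504 (Acmsd) to 0.0447 (Nmnat1). Nampt had −0.58 ± 0.23 (adjusted p = 0.175). With the deficient vegetable oil pools not labelled necrotic in that arm, 0 of 9 genes passed by limma and 2 had an unadjusted p under 0.05, against 0.103% and 9.9% of probe sets, and Acmsd had 0.44 ± 0.36 (adjusted p = 0.69). The calls of Acmsd, Kynu, Kmo, Haao and Naprt in the first test held in all 15 alternatives, those of Qprt and Nadsyn1 in 9 and that of Nmnat1 in 7.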

How the results depend on the processing

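Over 9 comparisons and all alternatives, 898 single-gene values kept their direction and side of the threshold, 27 lost a call, 14 gained one and 24 changed sign. Of the counts of called genes, deficient minus control vegetable oil gave 1 (Nampt) in place of 0 under cyclic loess, the 25th percentile filter, the trended robust prior and the mean of all probe sets, and 0 to 3 when single arrays were left out (3 without replicate 1 of deficient vegetable oil). Necrotic minus deficient vegetable oil gave 4 in place of 7 in the fit of those groups alone, and 6 to 7 with single arrays left out. Leaving out arrays gave 0 to 2 for deficient fish oil minus deficient vegetable oil, 8 to 9 for necrotic minus control vegetable oil and 7 to 8 for deficient fish oil minus necrotic. The interaction with the necrotic pools gave 5 to 8, and 5 without any 1 array other than replicate 1 of necrotic (7) and replicate 1 of control fish oil (8), where Qprt, Nadsyn1 and Nmnat1 were lost. The samples are not paired by their replicate numbers; with replicate as a block that interaction gave 7, losing Nmnat1 (adjusted p = 0.0667), and no other call among the 9 genes changed.

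The 24 sign changes touched 20 gene differences, none of them called before or after the change, and the cause was not tested. All but 1 came from leaving out single arrays, with these ranges. In deficient minus control vegetable oil Nadsyn1 ran from −0.44 to 0.25, and it was 0.00 without replicate 2 of control vegetable oil. In deficient fish oil minus necrotic Nampt ran from −0.06 to 0.36. In deficient minus control fish oil Kynu ran from −0.34 to 0.04, Qprt from −0.13 to 0.15 (−0.01 under cyclic loess), Nampt from −0.24 to 0.07, Naprt from −0.03 to 0.14, Nadsyn1 from −0.04 to 0.30 and Nmnat1 from −0.23 to 0.20. In control fish oil minus control vegetable oil Kynu ran from −0.25 to 0.13, Qprt from −0.22 to 0.05, Nadsyn1 from 0.00 to 0.34 and Nmnat1 from −0.41 to 0.03. In deficient fish oil minus deficient vegetable oil, where the negative ends came without replicate 2 of the vegetable oil group, Acmsd ran from −0.23 to 0.66, Kynu from −0.17 to 1.14, Haao from −0.03 to 0.79 and Naprt from −0.10 to 0.19. In the interaction without the necrotic pools the same omission gave the negative ends of Acmsd (−0.01 to 0.89), Kynu (−0.11 to 1.20), Kmo (−0.23 to 0.86) and Nadsyn1 (−0.12 to 0.57).

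Over the alternatives that test all 29214 probe sets, calls ran from 32 to 714 (330 as reported) in deficient minus control vegetable oil, 3003 to 6579 (6098) in necrotic minus control vegetable oil, 654 to 3464 (2860) in necrotic minus deficient vegetable oil, 25 to 716 (507) in deficient fish oil minus deficient vegetable oil, 3 to 124 (54) in control fish oil minus control vegetable oil, 3324 to 6260 (5763) in deficient fish oil minus necrotic, 0 to 90 (30) and 955 to 3135 (2548) in the interactions without and with the necrotic pools, and 0 to 2 (0) in deficient minus control fish oil. With 1 mean value for each of 14506 genes, the counts were 582, 4913, 2947, 750, 122, 4767, 114, 2709 and 0 genes in the same order. The 21910 probe sets above the 25th percentile gave 464, 6547, 3495, 647, 115, 6281, 61, 3186 and 0. Precision is limited by having 2 arrays a group, and a group left with 1 array is assumed to vary like the others.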

Other observations

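The genes whose level followed Acmsd most closely over the 10 arrays, out of 14506 searched, were Fam151a (Pearson r = 0.9981), Bphl (0.998), Cpq (0.9974), Xpnpep2 (0.9972) and Gamt (0.9972). Gamt makes creatine from guanidinoacetate and Xpnpep2 is a membrane aminopeptidase. The necrotic minus control vegetable oil difference was −4.23 ± 0.21 for Fam151a, −2.91 for Xpnpep2, −2.89 for Gamt, −2.71 for Bphl and −1.92 for Cpq. The most opposite genes were Mrc1, the macrophage mannose receptor (r = −0.9898), Lox, the collagen cross-linking oxidase (−0.9884), and Nos2, the inducible nitric oxide synthase (−0.988). These r values are descriptions over arrays of 5 groups, and the necrotic pair is far from the rest.

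Among the 8 genes other than Nampt, pairwise r ran from 0.835 to 0.994 (median 0.968) over 10 arrays and from 0.276 to 0.978 (median 0.768) without the necrotic arrays. Nampt had r between −0.193 and 0.136 with the other 8, and between −0.537 and 0.246 without the necrotic arrays. Closest to Nampt were Aatf (0.9563), C4h12orf71 (0.9071), Gap43 (0.9058), Metap2 (0.8595) and Slc6a6 (0.8585). None of these was called in necrotic or in deficient against control vegetable oil kidneys. C4h12orf71 and Gap43 had control vegetable oil means of 5.69 and 5.78, near 5.75, the 25th percentile of probe set means.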
